A study of Mus musculus with 6 samples.

Results

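The glucocorticoid receptor gene Nr3c1, 5 genes that respond to the receptor (Tsc22d3, Fkbp5, Per1, Klf9 and Zbtb16) and 4 genes that restrain or route glucose use (Txnip, Arrdc4, Cnr2 and Irs2) were followed in mouse pre-B cells made leukaemic by BCR-ABL1, the kinase that the Philadelphia chromosome encodes. The members were taken by name: every probe set that the platform's annotation gives to 1 of these 10 symbols was kept, which left 10 probe sets, 1 for each gene, among 19936 genes tested. All cells were labelled wild type, of strain C57Bl6 and an age of 4 weeks, and all carry BCR-ABL1. They were transduced with the retroviral vector pMIG, which marks cells with green fluorescent protein, or with pMIG-IKZF1, which adds the gene for Ikaros, a zinc finger regulator of lymphoid genes, and GFP-positive cells were sorted at day 3. Each group had 3 Affymetrix arrays, referred to by group and replicate number (empty vector 1, IKZF1 1 and so on). Separate cultures or animals are not named in the labels, so the spread behind each p-value may be technical. The species and isoform of the IKZF1 insert are not named either.

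The glucocorticoid receptor is a nuclear receptor that HSP90 and its partner proteins hold in the cytoplasm until it binds hormone; it then enters the nucleus and switches its target genes. In B-lineage leukaemia this leads to cell death, which is why glucocorticoids are a mainstay of treatment. Txnip and Arrdc4 encode alpha-arrestins that lower glucose uptake by drawing glucose transporters from the cell surface, and their genes are themselves switched on by glucose through the MondoA and ChREBP factors. Work on human B-cell leukaemia has named NR3C1, TXNIP and CNR2 as effectors by which B-lymphoid transcription factors, Ikaros among them, limit the energy supply of the cell. The comparison below addresses how these genes differ when Ikaros is supplied.

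None of the 10 members passed the threshold, an adjusted p under 0.05 (limma, Benjamini-Hochberg over 19936 genes), where 2.25% of all genes tested did. The largest difference was that of Irs2, 0.66 on the log2 scale, and the smallest adjusted p that of Nr3c1, 0.10. An unadjusted p under 0.05 was reached by 2 of 10 members, Nr3c1 and Irs2, and by 18.4% of all genes. The same 2 were the only members whose IKZF1 and empty vector arrays did not overlap, which held for 26.5% of all genes. With the replicate number as a block in the fit, 0 of 10 members passed (3 had an unadjusted p under 0.05), while the share over all genes was 7.21%, and the unadjusted share 26.3%. Of the 10 log2 differences, IKZF1 minus empty vector, 6 were below 0 and 4 above, with a median of -0.13 against 0.03 for all genes.

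The transduced gene, Ikzf1, stood at 11.85, 11.78 and 11.98 with the empty vector and 13.09, 13.14 and 13.06 with IKZF1 (log2 level; difference 1.23 ± 0.07 SE, limma adjusted p = 0.0021). Of 11 measured pre-B cell markers, 11 lay above the range that held 95% of 1194 olfactory and vomeronasal receptor genes, used as a measure of background, and 0 passed in limma (3 with an unadjusted p under 0.05). Over these 11 markers the mean log2 level ran from 11.41 to 12.08 on the empty vector and from 11.64 to 11.995 on the IKZF1 arrays. The counts thus do not show that the arrays were alike in these markers. The other cell types had 2 of 12 myeloid, 4 of 11 T and NK, 5 of 7 erythroid and 6 of 12 stromal markers above that range. In limma 0 of these 42 passed, 7 with an unadjusted p under 0.05. With the block the collagen gene Col1a1 passed (0.30, adjusted p = 0.0499), where 7.21% of all genes did. The mean log2 level of the T and NK list ran from 5.59 to 5.66 on the empty vector and from 5.68 to 5.87 on the IKZF1 arrays, and that of the stromal list from 5.90 to 5.99 and from 5.97 to 6.20. The part of the pre-B, T and NK and stromal lists in the differences given here was not tested. Fewer cells of a type and less RNA per cell cannot be told apart. Empty vector 3 stood apart from the other arrays of its group for several members, so values without it are given for members and lists whose call or count it changes. The array was picked from these same values, so a gene that passes without it gains no independent support from that. The fits without empty vector 3 kept IKZF1 3, the array of the same number. Without empty vector 3, 947 of all genes (4.75%) passed, against 24 to 163 without any other single array.

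**Figure D1:**
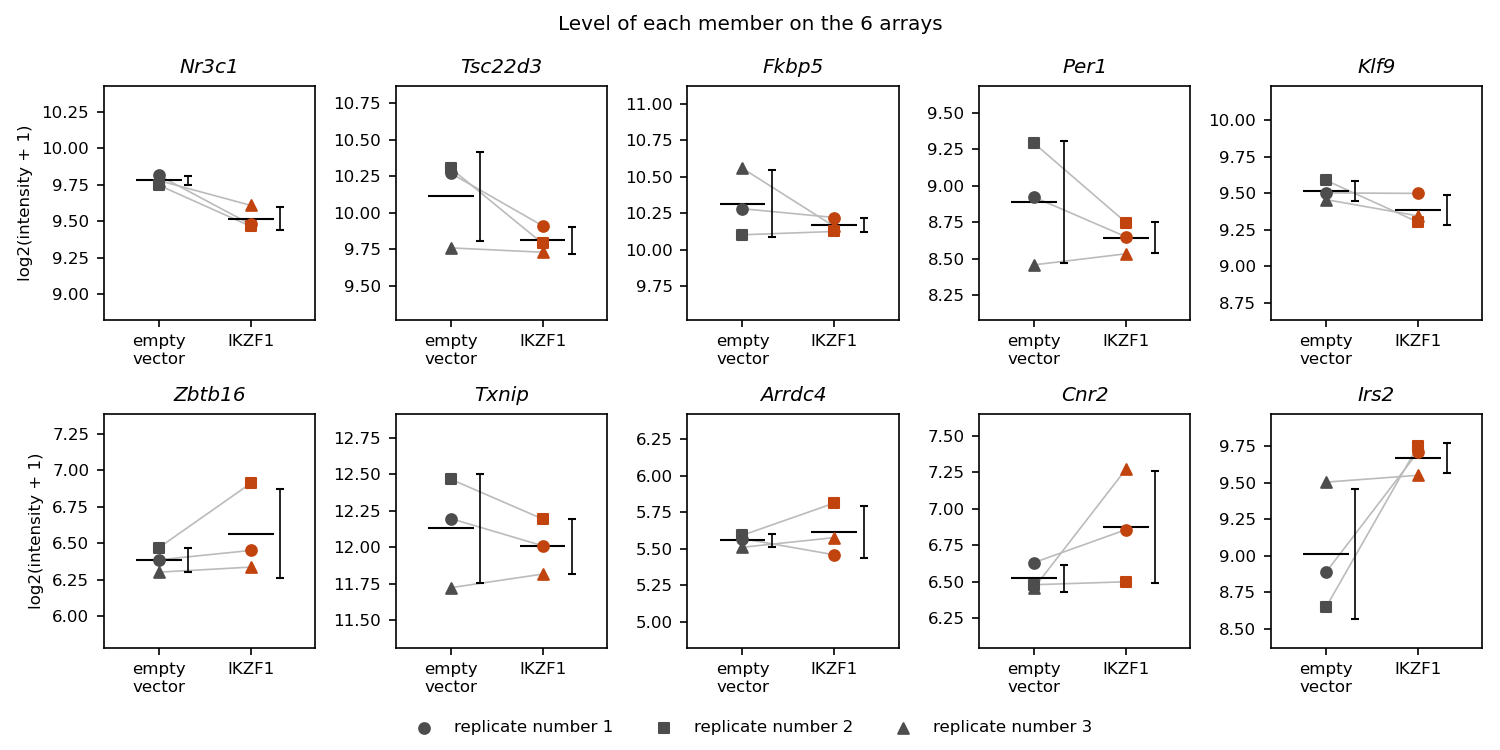
Log2(intensity + 1) of the 10 members on each array, 3 empty vector and 3 IKZF1 arrays; bars are group means, error bars the SD, and grey lines join arrays of the same replicate number. All panels span the same number of log2 units. The groups are apart for Nr3c1 and Irs2 and overlap for the other 8 members, and empty vector 3 (dark triangle) is the lowest of its group for 7 members, farthest below the others for Txnip, Per1 and Tsc22d3, between the other two for Nr3c1, and the highest for Irs2 and Fkbp5.

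Nr3c1, the receptor itself, had log2 levels of 9.81, 9.75 and 9.78 with the empty vector and 9.48, 9.47 and 9.61 with IKZF1. Every IKZF1 array lay below every empty vector array. The log2 difference was -0.26 ± 0.06 (SE; 95% interval -0.42 to -0.11), with a limma adjusted p of 0.10, and a 2-sided exact permutation test of the 6 values gave p = 0.1, the lowest value possible with 3 arrays per group. The 3 pairs of same-numbered arrays gave -0.34, -0.28 and -0.17. Nr3c1 also varied least of the 10 members within the groups, with a pooled SD of 0.06, against a median of 0.11 over all genes. It passed in 1 of 18 other settings, the fit with the replicate number as a random block (adjusted p = 0.034; range over the settings 0.034 to 0.37), where 8.35% of all genes passed.

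Tsc22d3 encodes GILZ, a leucine zipper protein that carries many of the anti-inflammatory actions of glucocorticoids and is among the most direct receptor targets. Its log2 levels were 10.27, 10.31 and 9.76 with the empty vector and 9.91, 9.79 and 9.73 with IKZF1. Empty vector 3 lay 0.53 below the mean of the other two of its group, among the IKZF1 arrays. The log2 difference over all arrays was -0.30 ± 0.15 (95% interval -0.67 to 0.07, adjusted p = 0.35). Without empty vector 3 it was -0.48 and passed (adjusted p = 0.028), in a fit where 4.75% of all genes passed. The 3 same-numbered pairs gave -0.36, -0.51 and -0.03, and the limma adjusted p with the replicate block was 0.14.

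Fkbp5 encodes a co-chaperone of HSP90 that lowers the receptor's affinity for hormone and so closes a feedback loop. Its log2 levels were 10.28, 10.10 and 10.56 with the empty vector and 10.22, 10.13 and 10.16 with IKZF1. The IKZF1 arrays fell inside the range of the empty vector arrays, and the difference was -0.15 ± 0.12 (95% interval -0.43 to 0.14, adjusted p = 0.54). Here empty vector 3 was the highest array, 0.37 above the mean of the others of its group, the opposite of its place for Tsc22d3. Without it the difference was -0.02, and without empty vector 2, the lowest of the group, -0.25 (adjusted p = 0.26).

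Per1 encodes a repressor of the circadian clock whose gene glucocorticoids induce directly. It read 8.92, 9.29 and 8.46 with the empty vector and 8.65, 8.75 and 8.53 with IKZF1. The empty vector arrays spread over 0.83 on the log2 scale, and all 3 IKZF1 arrays lay within that span. The difference was -0.25 ± 0.20 (95% interval -0.73 to 0.24, adjusted p = 0.54), -0.46 without empty vector 3 (adjusted p = 0.10) and -0.05 without empty vector 2.

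Klf9 encodes a Krüppel-like zinc finger repressor, another early target of the receptor. Log2 levels of 9.50, 9.59 and 9.46 on the empty vector arrays faced 9.50, 9.30 and 9.35 on the IKZF1 arrays, a difference of -0.13 ± 0.08 (95% interval -0.31 to 0.05, adjusted p = 0.39). IKZF1 1 lay among the empty vector arrays and IKZF1 2 and 3 below them. Zbtb16, which encodes the transcriptional repressor PLZF, read 6.39, 6.47 and 6.30 with the empty vector and 6.45, 6.91 and 6.34 with IKZF1. Its difference of 0.18 ± 0.15 (95% interval -0.18 to 0.54, adjusted p = 0.55) rested on IKZF1 2 and was 0.01 without that array.

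The 5 receptor-responsive members thus had 4 differences below 0 and 1 above, and 0 passed. For 4 members, Tsc22d3, Per1, Zbtb16 and Txnip, the arrays numbered 3 were the lowest of both groups, as they were for 18.2% of all genes. For 6 members the gap between empty vector 3 and the mean of empty vector 1 and 2 was larger than the difference between the groups, which was so for 50.9% of all genes. A pooled within-group SD above the median of all genes was found for 8 of the 10 members, Nr3c1 and Klf9 being the exceptions.

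Txnip, the alpha-arrestin that binds thioredoxin and lowers glucose uptake, had log2 levels of 12.20, 12.47 and 11.72 with the empty vector and 12.01, 12.19 and 11.82 with IKZF1. All IKZF1 arrays lay inside the empty vector range. The difference was -0.12 ± 0.20 (95% interval -0.59 to 0.35, adjusted p = 0.76), and the interval with the replicate block ran from -0.34 to 0.10 (adjusted p = 0.42). The array numbered 2 was the highest and the one numbered 3 the lowest in both groups, and the 3 same-numbered pairs gave -0.19, -0.27 and 0.09. The sign turned without empty vector 2 (0.05), and the difference was -0.32 without empty vector 3 (adjusted p = 0.26).

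Arrdc4, its close relative, read 5.57, 5.59 and 5.51 with the empty vector and 5.46, 5.81 and 5.58 with IKZF1. These values lay within the range of the receptor genes used as background, whose 95% limits were 6.12 in the empty vector and 6.24 in the IKZF1 group, so that a change of this gene was not measurable here. Its difference was 0.06 ± 0.10 (95% interval -0.18 to 0.29, adjusted p = 0.77). Arrdc4 was the only member of the 10 not above background in both groups. Zbtb16 (group means 6.39 and 6.57) and Cnr2 (6.52 and 6.88) lay only a little above the limits, so their differences come from weak signals.

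Cnr2 encodes the cannabinoid receptor of immune cells, which signals through inhibitory G proteins. Log2 levels were 6.63, 6.48 and 6.46 with the empty vector and 6.86, 6.501 and 7.27 with IKZF1. IKZF1 2 lay among the empty vector arrays and IKZF1 3 was the highest. The difference was 0.35 ± 0.19 (95% interval -0.10 to 0.80, adjusted p = 0.37), with 0.23, 0.02 and 0.81 in the 3 same-numbered pairs and 0.15 without IKZF1 3.

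Irs2 encodes the adaptor that links the insulin and IGF receptors to PI3 kinase. Its log2 levels were 8.89, 8.65 and 9.50 with the empty vector and 9.71, 9.75 and 9.55 with IKZF1. The groups did not overlap, but empty vector 3 came within 0.05 of IKZF1 3, the array of the same number. The difference was 0.66 ± 0.21 (95% interval 0.15 to 1.16), or 1.58-fold, with an adjusted p of 0.18 (0.11 with the replicate block), and the exact permutation test gave p = 0.1. The 3 pairs gave 0.82, 1.10 and 0.05. Irs2 passed without empty vector 3 (0.90, adjusted p = 0.0092), in a fit where 4.75% of all genes passed. It also passed with array weights (0.71, adjusted p = 0.035), where 7.43% of all genes passed and the estimation of the weights stopped before it met its convergence tolerance. Over the 18 other settings of Irs2 the adjusted p ran from 0.0092 to 0.47.

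**Figure D2:**
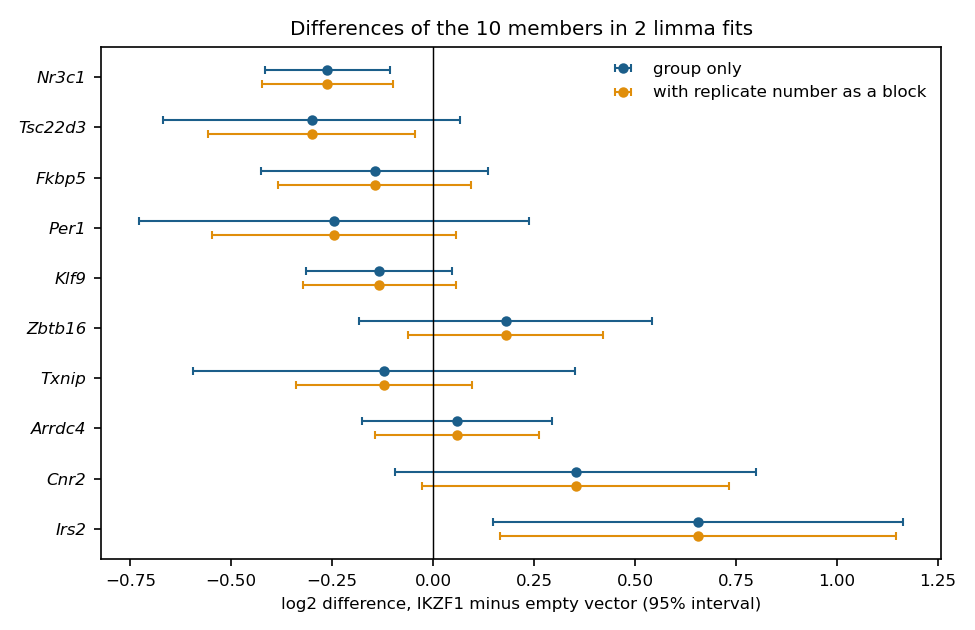
Log2 difference, IKZF1 minus empty vector, of the 10 members with its 95% interval, from the limma fit with group alone (blue) and with the replicate number as a block (orange). The intervals of Nr3c1 and Irs2 leave out 0 in both fits before adjustment over all genes, and that of Tsc22d3 does so with the block (-0.56 to -0.04).

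**Figure D3:**
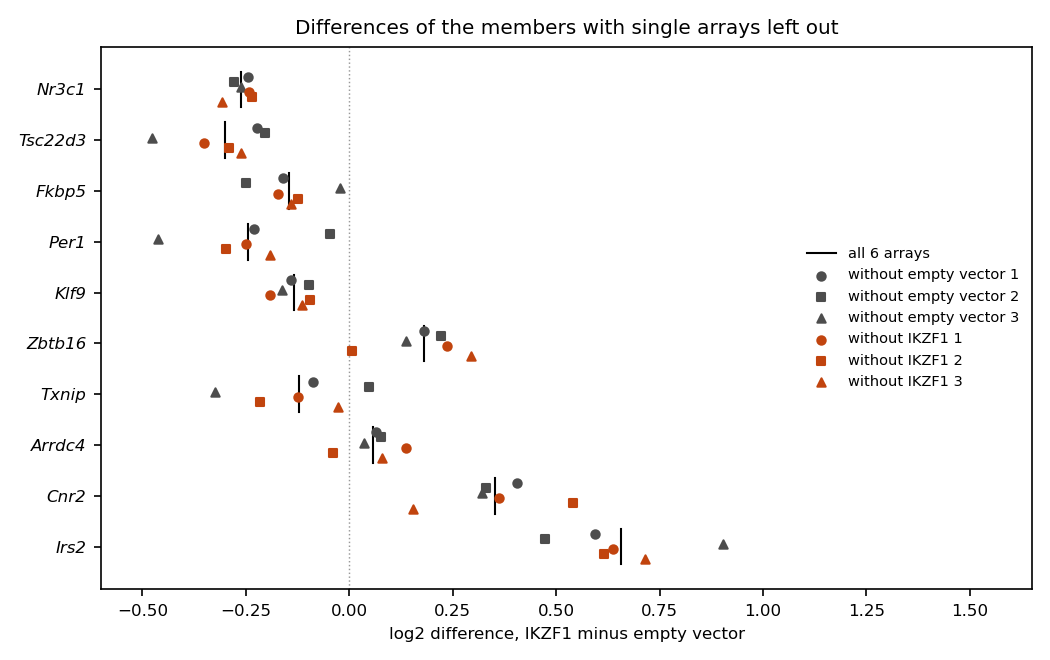
Log2 difference of each member with all 6 arrays (black line) and with each array left out in turn (grey, an empty vector array; red, an IKZF1 array). Leaving out empty vector 3 moves Tsc22d3, Per1 and Txnip to -0.48, -0.46 and -0.32 and Irs2 to 0.90, while Nr3c1 stays between -0.31 and -0.24.

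The plot of single arrays left out shows how differently the members rest on their arrays. Nr3c1 kept its sign in all 6 of these fits within a narrow span, whereas Txnip ran from -0.32 to 0.05, Per1 from -0.46 to -0.05 and Zbtb16 from 0.01 to 0.29. For Irs2 the range was 0.47 to 0.90 and for Cnr2 0.15 to 0.54. Normalization moved Nr3c1 more, and over its 18 other settings the difference ran from -0.36 with centred arrays to -0.21 with quantile normalization.

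The 250 bases before the annotated transcription starts of the members were read from RefSeq (GRCm38.p6), which gave 12 windows for 8 members; Nr3c1 and Zbtb16 had no entry. The letters CACGTG, the E-box read by MondoA, ChREBP, Myc and the clock factors, stood in 4 of the 12 windows, those of Fkbp5, Arrdc4, Irs2 and the upstream start of Per1, and in 6.02% of 32851 windows of the same length. The paired form of the carbohydrate response element, searched as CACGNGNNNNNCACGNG on both strands, was found in the Txnip window and in 0.0457% of all windows. The 5 windows that hold either are printed, since the paired element is a known route of glucose to Txnip and the windows show how far its letters are shared by other members. They run 5′ to 3′ on the gene's strand, and capitals mark CACGTG or the paired element.
Txnip, chr3:96557707-96557956, plus strand: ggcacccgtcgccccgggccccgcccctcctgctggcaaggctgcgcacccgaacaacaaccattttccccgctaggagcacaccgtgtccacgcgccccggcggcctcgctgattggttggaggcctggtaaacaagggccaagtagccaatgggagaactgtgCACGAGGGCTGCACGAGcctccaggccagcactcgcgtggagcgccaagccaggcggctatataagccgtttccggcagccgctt
Arrdc4, chr7:68749239-68749488, minus strand: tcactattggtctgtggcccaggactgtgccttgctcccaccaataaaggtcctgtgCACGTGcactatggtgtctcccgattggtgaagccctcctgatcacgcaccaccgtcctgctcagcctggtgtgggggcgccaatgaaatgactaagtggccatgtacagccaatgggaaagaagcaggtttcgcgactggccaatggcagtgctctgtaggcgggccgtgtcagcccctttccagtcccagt
Irs2, chr8:11008930-11009179, minus strand: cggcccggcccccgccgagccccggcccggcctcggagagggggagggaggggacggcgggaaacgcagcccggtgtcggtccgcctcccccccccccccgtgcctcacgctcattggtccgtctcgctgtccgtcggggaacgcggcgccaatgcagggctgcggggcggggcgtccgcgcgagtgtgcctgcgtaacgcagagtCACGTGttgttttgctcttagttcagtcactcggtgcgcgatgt
Per1, chr11:69098699-69098948, plus strand: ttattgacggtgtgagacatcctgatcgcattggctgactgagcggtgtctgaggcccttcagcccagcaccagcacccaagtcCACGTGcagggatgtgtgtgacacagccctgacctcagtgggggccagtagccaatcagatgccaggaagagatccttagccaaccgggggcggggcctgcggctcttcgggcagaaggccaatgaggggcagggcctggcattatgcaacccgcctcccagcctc
Fkbp5, chr17:28486150-28486399, minus strand: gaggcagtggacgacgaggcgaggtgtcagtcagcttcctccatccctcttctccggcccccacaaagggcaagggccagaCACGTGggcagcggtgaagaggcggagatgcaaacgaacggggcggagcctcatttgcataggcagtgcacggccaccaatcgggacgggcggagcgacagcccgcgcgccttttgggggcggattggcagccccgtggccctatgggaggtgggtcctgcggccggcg
The paired element begins 85 bases before the Txnip start, and CACGTG begins 193 bases before that of Arrdc4, 44 before that of Irs2, 166 before that of Per1 and 169 before that of Fkbp5. Log2 differences of the genes with these letters were 0.66 for Irs2, 0.06 for Arrdc4, -0.12 for Txnip, -0.15 for Fkbp5 and -0.25 for Per1. None passed the threshold, and whether these genes share a direction cannot be read from the values. A change of Arrdc4 was not measurable, and the intervals of Txnip, Fkbp5 and Per1 included 0. The half-site of the glucocorticoid receptor, AGAACA on either strand, stood in 1 of 12 windows, at the start of Tsc22d3 that lies farthest upstream, and in 16.1% of all windows. The full palindrome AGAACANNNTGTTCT, which contains that half-site, stood in 0 of 12 and in 0.00913% of all. GGGAA, the core that Ikaros reads, was held by 7 of 12 windows and by 56.2% of all. Those windows belong to 7 of the 8 members, of which Tsc22d3, Cnr2 and Per1 have several windows. A share by gene was not computed over all genes. A match is a description of the letters in these windows and says nothing of binding.

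Around the receptor, 1 of 9 measured genes of steroid receptors and steroid activation rose and 8 did not pass (3 of the 9 had an unadjusted p under 0.05; median 0.10). Over all genes 2.25% passed and 18.4% had an unadjusted p under 0.05. The riser was Nr3c2, the mineralocorticoid receptor gene, whose protein also binds glucocorticoids. Nr3c2 read 5.57, 5.79 and 5.82 with the empty vector and 6.37, 6.31 and 6.502 with IKZF1 (difference 0.67 ± 0.09 SE, limma adjusted p = 0.024). The groups were apart, but the empty vector level lay within background, so the size of the rise rests on a background signal. Nr3c2 did not pass with quantile normalization (adjusted p = 0.051), with arrays centred on their medians (0.057), or without empty vector 1 or 2 or any one IKZF1 array (0.058 to 0.11). Abcb1b, which encodes a P-glycoprotein that exports steroids, had -0.85 (adjusted p = 0.078, or 0.041 in the blocked fit), and Hsd11b2, whose enzyme inactivates corticosterone, 0.30 (adjusted p = 0.27), from an empty vector level (6.114) just under the background limit (6.121). With the block 2 of the 9 were higher and 1 lower, the further one being the oestrogen receptor gene Esr1 (0.41, adjusted p = 0.029). In the blocked fit 7.21% of all genes passed. Without empty vector 3 the genes past the threshold were 2, Nr3c2 and Abcb1b (-1.07, adjusted p = 0.0024), in a fit where 4.75% of all genes passed.

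Of 25 chaperones and coregulators of the receptor, 5 reached an unadjusted p under 0.05, as did 18.4% of all genes. In limma 0 of the 25 passed, with a median log2 difference of -0.06. The closest was Smarca4, which encodes the chromatin remodelling ATPase BRG1 (0.29, adjusted p = 0.052, and 0.048 with the block, where it was the only gene of the list to pass). Stip1, an adaptor between HSP70 and HSP90, had -0.22 (adjusted p = 0.15), and the acetyltransferase gene Ep300 0.28 (adjusted p = 0.22). Of 30 further glucocorticoid-induced genes, 1 rose and 29 did not pass; 5 had an unadjusted p under 0.05, and the median was 0.02. The riser was Nfkbia, which encodes the NF-kB inhibitor I-kappa-B alpha and is also a target of NF-kB itself. It read 10.84, 10.81 and 10.95 with the empty vector and 11.35, 11.37 and 11.39 with IKZF1 (difference 0.50 ± 0.06, adjusted p = 0.019). Nfkbia did not pass with centred arrays (adjusted p = 0.058) or without any single array other than empty vector 3 (0.057 to 0.13). Tle1, a corepressor gene, had -0.44 (adjusted p = 0.062) and Bcl6, a B cell repressor gene, 0.32 (adjusted p = 0.11). With the block 1 was higher and 2 lower, Tle1 (adjusted p = 0.028) and the annexin gene Anxa1 (-0.94, adjusted p = 0.029). In the blocked fit 7.21% of all genes passed. Without empty vector 3 the count was 6, in a fit where 4.75% of all genes passed. It was 0 without any other single array, where between 24 and 163 of 19936 genes passed. The 6 were Nfkbia, the forkhead factor gene Foxo1 (0.60) and Snn (1.05), which were higher, and Anxa1 (-1.25) and the metallothionein genes Mt1 (-1.38) and Mt2 (-2.16), which were lower.

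Around the glucose gatekeepers, 0 of 19 alpha-arrestin, thioredoxin and MondoA genes passed in limma, with 4 at an unadjusted p under 0.05 and a median of -0.06. An unadjusted p under 0.05 was found for 18.4% of all genes, here and for the lists that follow. The beta-arrestin gene Arrb1 had -0.39 (adjusted p = 0.14, and 0.035 with the block), the ubiquitin ligase gene Wwp1 -0.23 (adjusted p = 0.18) and Itch, the ligase that marks TXNIP for degradation, 0.21 (adjusted p = 0.18). Of 9 glucose transporter and entry-step genes, 0 passed, 4 had an unadjusted p under 0.05 (18.4% of all genes did) and the median was 0.11. Those with the smallest p were Slc2a8 (0.30, adjusted p = 0.077), Slc2a9, a transporter of urate and sugars (-0.54, adjusted p = 0.091, and 0.034 with the block), and Slc2a3 (0.23, adjusted p = 0.21). Slc2a9 was also the 1 gene of this list to pass without empty vector 3 (-0.68, adjusted p = 0.0088), where 4.75% of all genes passed. Of 15 genes of LKB1 and AMPK energy sensing, 0 passed, also with the block, 3 reached an unadjusted p under 0.05 and the median was 0.01. Stk11, the LKB1 gene, had 0.20 (adjusted p = 0.13), Stradb, a pseudokinase partner, -0.21 (adjusted p = 0.16) and the AMPK subunit gene Prkag2 0.30 (adjusted p = 0.21). Of 15 endocannabinoid genes, 0 passed (median 0.09) and 1 reached an unadjusted p under 0.05, Abhd4 (-0.31, adjusted p = 0.085). With the block 1 was higher, the lysophospholipid receptor gene Gpr55 (0.53, adjusted p = 0.032), and 1 lower, Cnrip1 (-0.42, adjusted p = 0.030). In the blocked fit 7.21% of all genes passed. Gnai3 had -0.14 (adjusted p = 0.29) without the block. Without empty vector 3 the 1 gene to pass was Abhd4 (-0.37, adjusted p = 0.040), against 4.75% of all genes.

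The insulin and IGF signalling genes, the setting of Irs2, held 1 riser among 26, and 25 did not pass; 10 had an unadjusted p under 0.05, where 18.4% of all genes did, and the median was 0.11. Pik3r5 encodes the regulatory subunit of PI3 kinase gamma. It read 9.17, 9.28 and 8.93 with the empty vector and 9.87, 10.16 and 9.91 with IKZF1, with the groups apart (difference 0.86 ± 0.12, adjusted p = 0.026). Pik3r5 did not pass without empty vector 1 or any one IKZF1 array (adjusted p from 0.083 to 0.14). Irs1, the other main insulin receptor adaptor, had 0.37 (adjusted p = 0.092) beside the 0.66 of Irs2, and the catalytic subunit gene Pik3cd 0.22 (adjusted p = 0.11). With the block 2 were higher, Pik3r5 (adjusted p = 0.0088) and the IGF receptor gene Igf1r (0.35, adjusted p = 0.032), and 1 was lower, Pdk1 (-0.78, adjusted p = 0.037), which encodes a kinase of pyruvate dehydrogenase and not of insulin signalling. In the blocked fit 7.21% of all genes passed. The group means of Igf1r, 5.84 and 6.19, both lay within background, so a change of this gene was not measurable here either. Without empty vector 3 the count was 4, Pik3r5 and the adaptor gene Gab1 (0.55) being higher and Pdk1 (-1.06) and the adaptor gene Grb10 (-0.48) lower. In that fit 4.75% of all genes passed. The count was 4 with array weights and 6 with the random block, where 7.43% and 8.35% of all genes passed. Without any other single array it was 0 or 1.

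Among 18 circadian clock genes, the company of Per1, 0 passed in limma, 3 had an unadjusted p under 0.05 (18.4% of all genes did) and the median was -0.03. Bhlhe41, a clock repressor gene, read 8.25, 7.58 and 9.36 with the empty vector and 9.66, 9.02 and 10.06 with IKZF1. Its groups overlapped while each pair of the same number differed one way, and it passed with the block (1.18, adjusted p = 0.018, and 0.26 without). Arntl, the gene of BMAL1, had 0.60 (adjusted p = 0.17, and 0.024 with the block, where these 2 were the clock genes that passed) and Nr1d1, the gene of REV-ERB alpha that represses it, -0.42 (adjusted p = 0.24). Of all genes 7.21% passed with the block. Without empty vector 3 the clock genes that passed were 3, Bhlhe41 (1.66) and, lower, the repressor genes Bhlhe40 (-0.93) and Ciart (-0.97). Of all genes 4.75% passed in that fit. Of 38 close relatives of the members (TSC22, FKBP, Krüppel-like and BTB zinc finger genes), 0 passed and 5 had an unadjusted p under 0.05, with a median of -0.01. Klf2, a Krüppel-like factor gene of resting lymphocytes, had 1.15 (adjusted p = 0.11, and 0.026 with the block, where it alone passed), from 9.004, 9.59 and 8.39 to 10.24, 10.22 and 9.97. Klf8 had -0.52 (adjusted p = 0.11) and Bcl6, which also belongs here, 0.32. With single arrays left out, Klf2 passed without empty vector 2 (1.45, adjusted p = 0.049), and another Krüppel-like factor gene, Klf10, without empty vector 3 (-0.70, adjusted p = 0.029).

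**Figure D4:**
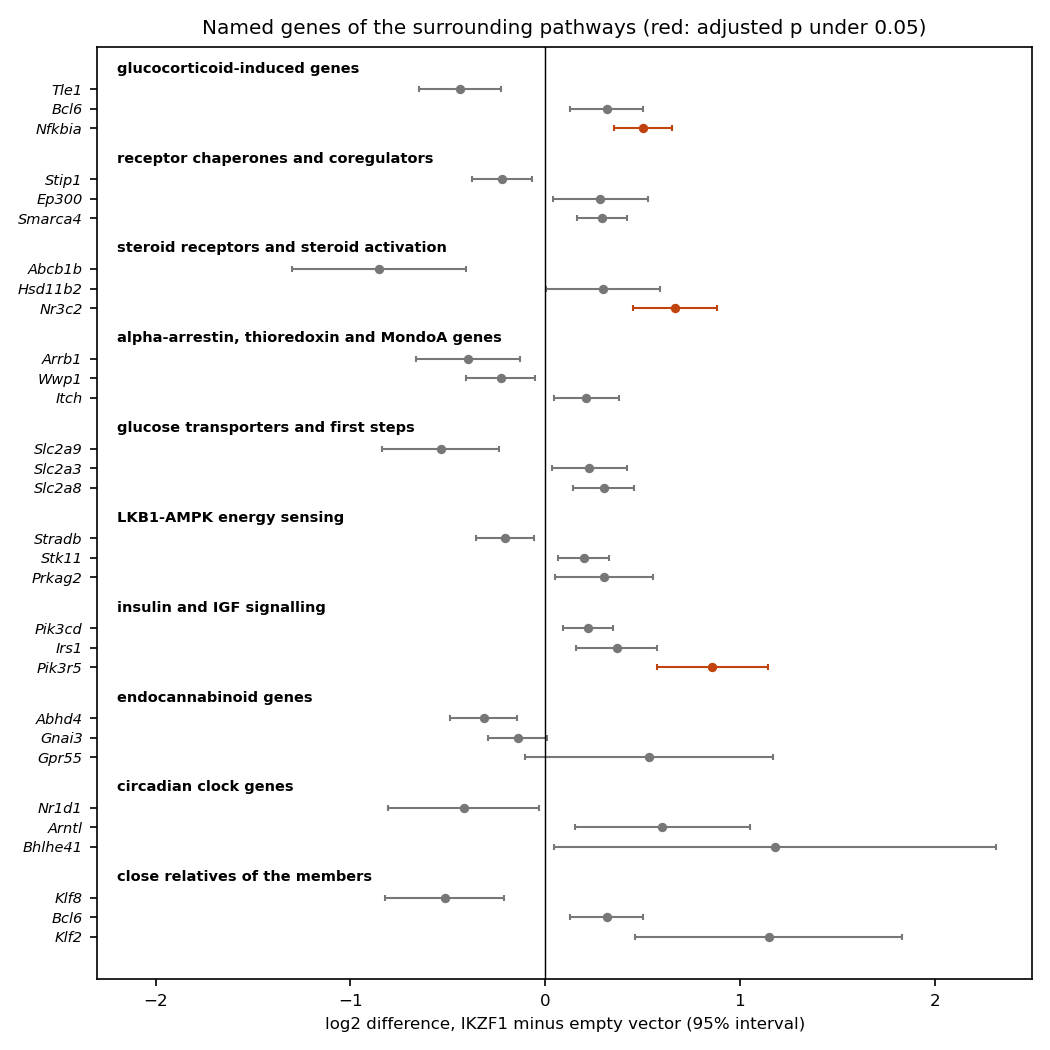
Log2 difference, IKZF1 minus empty vector, with its 95% interval for up to 3 genes of each of the 10 surrounding lists, those past the threshold first and then those of smallest p. Nfkbia, Nr3c2 and Pik3r5 (red) passed an adjusted p under 0.05 with group alone in the fit, and the other genes (grey) did not.

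The genes whose pattern over the 6 arrays lay closest to a member were found by the root mean square difference of their log2 deviations from their own means, among 10805 named genes with a mean log2 level of at least 6.5. For Nr3c1 they were Mrpl19, Ctc1 and Atp5h, at 0.02 log2 units each. For Txnip they were Ppp1r3b (0.03), Man2b2 and Osm (both 0.04). No gene came as near to Cnr2, whose closest were Bloc1s3 and Wdr53 (both 0.14) and Ahr (0.15). The root mean square deviations of the members themselves were 0.14 for Nr3c1, 0.25 for Txnip and 0.29 for Cnr2, and distances were not scaled by them. The likenesses are descriptions of 6 arrays, given without a test.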

How the data were processed

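RNA of 6 samples was measured on Affymetrix arrays, 3 transduced with pMIG and 3 with pMIG-IKZF1, grouped by the sample titles. The authors deposited linear intensities of 35421 probe sets (11.1 to 23523), on which RMA (robust multi-array averaging) had been run, per the submitters' processing notes; which version or program is not given in the sources used here. Probe sets with 1 symbol, 21789 in all, were kept; the brightest stood for a gene with several (1001 genes), giving 19936 genes.

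Log2(intensity + 1) was fitted with limma 3.58.1 in R 4.3.3 (lmFit, eBayes, 2-sided, group as the only term; 95% intervals from that fit), with Benjamini-Hochberg adjustment over all genes. No filter on level was set. Precision is limited by the number of arrays. The fit was also run on simulated data with noise drawn independently for each gene and array. Such data lack the shared departures of same-numbered arrays given below, so that run does not bear on them. Members and lists were chosen with earlier results of these data known. Text names the 10 members and up to 3 genes of each of 10 lists (257 of 275 entries measured, marker lists included), those past the threshold first and then by p; Esr1, Anxa1, Col1a1, Cnrip1, Igf1r and Pdk1 were added once their values were known, as passing with the block, and other list genes as passing without a single array.

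Replicate numbers are shared between groups in the titles. Across genes, the departures of arrays of 1 number from their group means correlated at r = 0.24, 0.60 and 0.66, all above the limit of 0.1. Equal numbers were taken as pairs on that ground. For unequal numbers r ran from -0.68 to 0.11. Empty vector 1 with IKZF1 2 (0.11) thus also exceeded the limit, so the limit alone does not mark pairs. The main fit kept group as its only term, and the block was a further setting. Other settings were a fixed or random block, single arrays left out, a pseudocount of 16, genes of mean level 6.5 or more, 3 further normalizations, other uses of probe sets, and 3 variants of the fit. Promoter windows came from a RefSeq table of build GRCm38.p6, with no other use of a genome.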

Additional observations from a re-analysis of the deposited data

How the results depend on the processing

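The count of 0 members past the threshold held in 15 of 18 other settings. It was 1 with array weights (Irs2), 1 with the random block (Nr3c1) and, with single arrays left out, between 0 and 2, the 2 being Tsc22d3 and Irs2 without empty vector 3. The count over all genes, 448, was 1438 with the replicate block, 1481 with array weights, 1664 with the random block and between 24 and 947 with single arrays left out. The array weights come from an estimation that stopped before convergence, so values with them are less certain. The replicate block changed no call of a member. Members kept their sign under each setting except for Txnip, which ran from -0.324 to 0.0471 (without empty vector 2) with single arrays left out, and Arrdc4. Arrdc4, at background, ran from -0.0399 (without IKZF1 2) to 0.137 with single arrays left out and had -0.0209 with quantile normalization, -0.012 with cyclic loess, -0.0385 with centred arrays and -0.00914 with array weights. Centring lowered the differences of the other members too, such as Nr3c1 from -0.262 to -0.359 and Irs2 from 0.656 to 0.560. Median intensities ran from 100.2 to 101.8 on the empty vector and from 101.7 to 107.2 on the IKZF1 arrays. The cause of the changes of sign in the other settings was not tested. Arrdc4 and Zbtb16 gave no value among brighter genes alone. Signal over background limits Arrdc4 and Igf1r, in both groups, and the size of the differences of Nr3c2 and Hsd11b2, whose empty vector levels lay within it.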
